A study of Mus musculus with 2 samples.

Results

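The Mediator complex is the large assembly that passes signals from DNA-bound transcription factors to RNA polymerase II. Its members were taken here as the protein-coding genes named Med with a number, with or without a final l, plus Cdk8, Cdk19 and Ccnc. There were 33 such genes among 43346 gene rows and 21474 protein-coding genes. The levels came from polyA-selected RNA-seq of G1E-ER4 cells, an immortalized male mouse erythroid line. Its endogenous Gata1 is not functional, and the Gata1 it carries instead is a fusion with the ligand-binding part of the estrogen receptor, which estradiol activates. The series held 1 group of 2 libraries, from cells kept for 7 hours in 10 nM 17beta-estradiol. The labels number the libraries as biological replicates but give 1 biological sample record for both. The spread between them, and any p-value drawn from it, may therefore be technical. The series as analysed here has no untreated sample, so the levels describe treated cells and no effect of estradiol was measured.

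Mediator is built from a head and a middle module that contact the polymerase, a tail module that many activators bind, and a detachable kinase module. Med14 is the scaffold that joins head, middle and tail. The kinase module pairs cyclin C with Cdk8 or its paralog Cdk19, and also holds Med12 and Med13 or their paralogs Med12l and Med13l. In erythroid cells the middle subunit Med1 is known to bind Gata1.

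Replicate 1 held 59611000 expected counts and replicate 2 held 44689400, to 6 digits. The erythroid label was checked with 9 markers, which were all detected. They were Hbb-bs, Hba-a1, Zfpm1, Klf1, Gata1, Sptb, Ank1, Epor and Tal1. Gata1 is no check here, since its RNA can come from the introduced fusion. Of the other markers, 0 of 5 lymphoid, 0 of 4 stromal and 0 of 5 mature myeloid ones were detected. The highest of those other markers were Cd79a at a mean TPM of 0.245, Elane at 0.195 and Col1a2 at 0.120. Their few counts were uneven between replicates 1 and 2: 20 and 9 for Cd79a, 1 and 10 for Elane, and 18 and 30 for Col1a2. The myeloid marker Mpo, picked after its values were seen, had 0 and 24 counts. TPM is a level per transcript length, scaled to the same total in each library. A gene counted as detected where its TPM reached 1 in each library. As in any bulk sample, a low level can mean less RNA per cell or fewer cells with the RNA.

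Of the 33 members, 29 were detected, against 38.3% of all protein-coding genes. The 4 that were not were the kinase module genes Ccnc and Med12l and the middle subunits Med21 and Med31. A limit of 5 TPM, reached by 25 members in each library, left out 4 more. The median over members was 19.9 TPM in replicate 1 and 20.6 TPM in replicate 2, and the median over detected protein-coding genes was 21.2 and 19.6 TPM. These medians are not like for like, since the first takes in the 4 undetected members and the second takes detected genes only. Leaving out those 4 would raise the member median. The members themselves spanned a wide range, as the plot of levels by module shows.

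**Figure D1:**
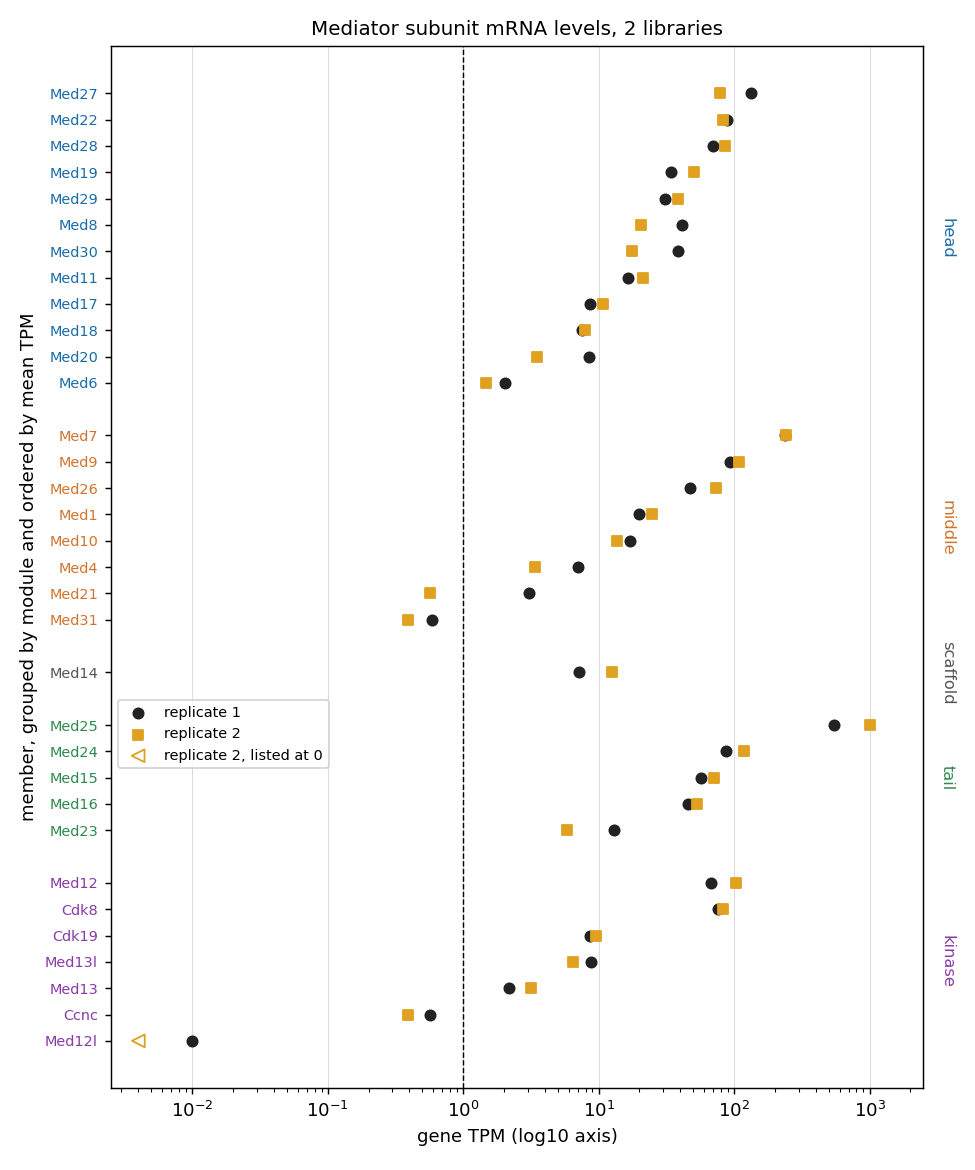
Gene TPM of each of the 33 Mediator genes on a log10 axis, with replicate 1 as black circles and replicate 2 as yellow squares, grouped by module and ordered by mean. The dashed line marks a TPM of 1, the open triangle a value listed at 0; Med25 stood highest at 544 and 1010 TPM, and Med12l lowest.

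The tail module had the highest median level and the kinase module the lowest, in both libraries. Over the 5 tail genes the median was 57.4 TPM in replicate 1 and 70.6 TPM in replicate 2 (64.0 ± 9.34 over the libraries, SD, n = 2). Over the 12 head genes it was 32.5 and 20.99 TPM, with a median of member means of 29.5 ± 8.15. The 8 middle genes had medians of 18.4 and 19.2 TPM (18.8 ± 0.566), and the 7 kinase module genes had 8.62 and 6.48 TPM (7.61 ± 1.51). Head and middle did not keep a clear distance: the head median was 1.76 times the middle median in replicate 1 and 1.09 times in replicate 2. The head median was 3.77 and 3.24 times the kinase median (3.51 ± 0.376, SD, n = 2). The tail median was 6.66 and 10.9 times the kinase median. These ratios describe 5 to 12 genes a module and carry no test.

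The head over kinase ratio depended on which genes were put in each module. With Med27, Med28, Med29, Med30 and the scaffold Med14 in the tail, Med19 in the middle and Med26 in no module, it was 1.34. With means over members in place of medians it was 1.46.

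By gene TPM, Med27, Med22 and Med28 stood highest among the head subunits. Med27 had 132 TPM in replicate 1 and 78.9 TPM in replicate 2. Med22, the partner of Med11 in the yeast complex, had 88.9 and 82.5 TPM. Med28 had 70.0 and 85.7 TPM. The ranges of Med27, Med22 and Med28 overlapped, so their order among themselves was not resolved.

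The next head subunits were Med19, with 34.03 and 50.3 TPM, and Med29, with 30.99 and 38.5 TPM. Med8 had 41.2 TPM in replicate 1 and 20.6 TPM in replicate 2. Med30, which has no counterpart in budding yeast, had 38.5 and 17.6 TPM. Levels of Med8 and Med30 were thus high in replicate 1 and low in replicate 2, while Med19 and Med29 leaned the other way.

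Lower in the head stood Med11 with 16.4 and 21.4 TPM and Med17, a core subunit that contacts the polymerase, with 8.70 and 10.8 TPM. Med18 and Med20 form a movable jaw of the head in yeast. Med18 had 7.48 and 7.93 TPM, and Med20 had 8.44 and 3.49 TPM. Med18 repeated closely, and Med20 did not. Med6 was lowest, at 2.03 and 1.48 TPM, or 73 and 45 expected counts. By mean gene TPM, Med27 was 60.2-fold higher than Med6. Over protein-coding transcripts only, Med27 had 3.84 and 5.13 TPM, and Med6 had 1.46 and 1.48 TPM. On that scale Med22 was the highest head gene by mean TPM, 58.3-fold above Med6.

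The middle module spanned the widest range of the core modules, 491-fold by mean TPM. Med7, which forms a hinge with Med21 in yeast, had 238 TPM in replicate 1 and 243 TPM in replicate 2. Med9 had 93.9 and 109 TPM. Med26, known in human cells as a docking site for elongation factors, had 47.5 and 74.1 TPM. By gene TPM the libraries did not overlap between Med7, Med9 and Med26, so that order held in both. Over protein-coding transcripts only, Med7 had 63.2 and 46.6 TPM. On that scale it was below Med9 in both libraries and overlapped Med26.

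Med1, the subunit bound by nuclear receptors and by Gata1, had 19.9 and 24.8 TPM. Med10 had 17.0 and 13.7 TPM, and Med4 had 7.08 and 3.39 TPM. Med21, the hinge partner of Med7, had 3.07 TPM in replicate 1 and 0.57 TPM in replicate 2, from 86 and 10 expected counts. Med31 had 0.59 and 0.39 TPM, from 27 and 14 counts. Med31 was the lowest of the module in both libraries, and Med21 the next lowest.

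The scaffold Med14 (chromosome X, 12675369 to 12762073, minus strand, GRCm38) had 7.10 TPM in replicate 1 and 12.6 TPM in replicate 2. It was lower than the tail, head and middle medians in both libraries.

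The tail held the most abundant Mediator RNA. Med25 (chromosome 7, 44876765 to 44892712, minus strand), which several activators bind in human cells, had 544 TPM in replicate 1 and 1010 TPM in replicate 2, from 59062 and 76869 expected counts. Its mean of 777 ± 330 TPM (SD, n = 2) lay at the 99.2nd percentile of protein-coding genes. The authors' deposited interval was 531 to 540 TPM in replicate 1 and 983 to 997 TPM in replicate 2, and lay around a posterior mean below the TPM itself. The libraries differed by far more than those intervals span. All of the Med25 TPM was assigned to 1 transcript, Med25-201, which is annotated as protein-coding.

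The other tail subunits were ordered in the same way in both libraries. Med24 had 86.9 and 119 TPM. Med15, which binds the SREBP activators of lipid synthesis in human cells, had 57.4 and 70.6 TPM. Med16 had 46.0 and 53.0 TPM. Med23, a target of the growth factor responsive activator Elk1, had 12.9 TPM in replicate 1 and 5.81 TPM in replicate 2. Med23 was the lowest tail gene and, by TPM, the only one of the 5 that was higher in replicate 1.

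In the kinase module, Med12 and Cdk8 had most of the gene-level TPM. Med12 (chromosome X, 101274030 to 101297465, plus strand), which activates the kinase, had 67.6 TPM in replicate 1 and 102 TPM in replicate 2. Cdk8 (chromosome 5, 146231230 to 146302874, plus strand) had 75.4 and 82.2 TPM. Cdk19 (chromosome 10, 40339564 to 40483818, plus strand) had 8.62 and 9.54 TPM. The 2 libraries overlapped between Med12 and Cdk8 and were far apart between Cdk8 and Cdk19.

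Med13 and Med13l, the subunits that tie the kinase module to the core, were both low. Med13l had 8.74 and 6.48 TPM, and Med13 had 2.18 and 3.18 TPM. The cyclin gene Ccnc (chromosome 4, 21727701 to 21759922, plus strand) had 0.57 TPM in replicate 1 and 0.39 TPM in replicate 2, from 81 and 23 expected counts. Med12l was close to 0 in both libraries, with 4 and 1 counts. The gene-level TPM of the cyclin thus stood below that of Cdk8 and of Cdk19, the kinases its protein pairs with, in both libraries. Over protein-coding transcripts only, Ccnc had 0.49 and 0.10 TPM, beside 1.42 and 2.65 TPM for Cdk8.

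The paralog pairs were compared per transcript length. The Cdk8 level was 8.75 times that of Cdk19 in replicate 1 and 8.62 times in replicate 2 (8.68 ± 0.0919, SD, n = 2). The Med12 level was 8565 times that of Med12l in replicate 1, with a 95% counting interval of 3345 to 31433. In replicate 2, with 1 Med12l count, it was 36240 times, with an interval of 6504 to 1431410, and the mean ratio of 22402 rests on those few counts. Intervals here cover counting error only. The Med13 level was 0.250 times that of Med13l in replicate 1 and 0.490 times in replicate 2 (0.370 ± 0.170). Med13l was therefore the higher of its pair in both libraries, as Med12 and Cdk8 were of theirs.

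The Cdk8 result turned round once the annotated type of its transcripts was used. The transcript Cdk8-207 took 97.9% of the Cdk8 TPM in replicate 1 and 96.8% in replicate 2. GENCODE marks it as a target of nonsense-mediated decay, the pathway that removes RNAs with an early stop codon. The full coding transcript Cdk8-201 took 1.37% and 2.76%. Over protein-coding transcripts only, the Cdk8 level was 0.165 times that of Cdk19 in replicate 1 and 0.277 times in replicate 2 (0.221 ± 0.0791), so Cdk19 was the higher. Cdk19 had no other type of transcript in the tables with TPM above 0.

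The sequences at the skipped exon show what separates these transcripts. Both are 2973 bases long. Cdk8-207 lacks a 58-base coding exon, at 146283629 to 146283686 on the plus strand of chromosome 5 (GRCm38), and begins 58 bases earlier than Cdk8-201. The skipped length leaves 1 base over from a multiple of 3, and the annotated stop of Cdk8-207 ends 39 bases past the new junction. Capitals mark the exon in Cdk8-201 and the stop codon in Cdk8-207, with 30 bases of the exon before it shown first in each.
Cdk8-201: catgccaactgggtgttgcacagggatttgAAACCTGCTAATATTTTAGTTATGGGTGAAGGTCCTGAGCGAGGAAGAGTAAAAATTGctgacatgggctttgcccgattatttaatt
Cdk8-207: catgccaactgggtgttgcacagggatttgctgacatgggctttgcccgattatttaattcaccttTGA
The 2 transcripts share nearly all other sequence, so fragments that tell them apart are few. Of 2943 stretches of 31 bases in Cdk8-207, 47 occurred in no other Cdk8 transcript, and of 2943 in Cdk8-201, 0 did. Those counts are against all other Cdk8 transcripts, not against the other of the pair. The 58-base exon does separate Cdk8-201 from Cdk8-207, but other Cdk8 transcripts hold it too. A pseudogene, Gm7107, matches 1250 bases of Cdk8 at 97.2% identity and was not analysed here.

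Other members had a leading transcript that is not annotated as coding. In both libraries this held for Med27, Med12, Cdk8, Med7 and Med1, the same 5 genes whose protein-coding transcripts took under 50% of the TPM in both. Among detected genes that was 5 of 29 members, or 17.2%, against 16.7% of detected protein-coding genes. The share of members is thus near the background. At the other end, 62.1% of detected members had at least 90% of their TPM in protein-coding transcripts in both libraries, against 62.9% of detected protein-coding genes.

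Med27 had 2.90% of its TPM in protein-coding transcripts in replicate 1 and 6.50% in replicate 2. Its leading transcript was Med27-204, 581 bases long, of which 252 lie in annotated coding sequence of the gene. Med7 had 26.5% and 19.1%, and its leading transcript Med7-208, of 445 bases, holds 0 bases of coding sequence. Most of the high Med7 level was thus assigned to a short transcript outside the coding sequence.

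Since TPM is per length, short transcripts weigh more in it than in counts. Med12 had 11.6% and 7.06% of its TPM in protein-coding transcripts, but 44.6% and 39.6% of its expected counts. Its leading transcript by TPM, Med12-206, is 448 bases long, while by counts the retained-intron transcript Med12-208 led with 44.9% and 41.1%. Med1 had 23.0% and 11.7% of its TPM, and 73.3% and 52.5% of its counts, in protein-coding transcripts. For Med1 the full coding transcript Med1-203 therefore led by counts, and the short Med1-207 and Med1-205 led by TPM in replicates 1 and 2.

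**Figure D2:**
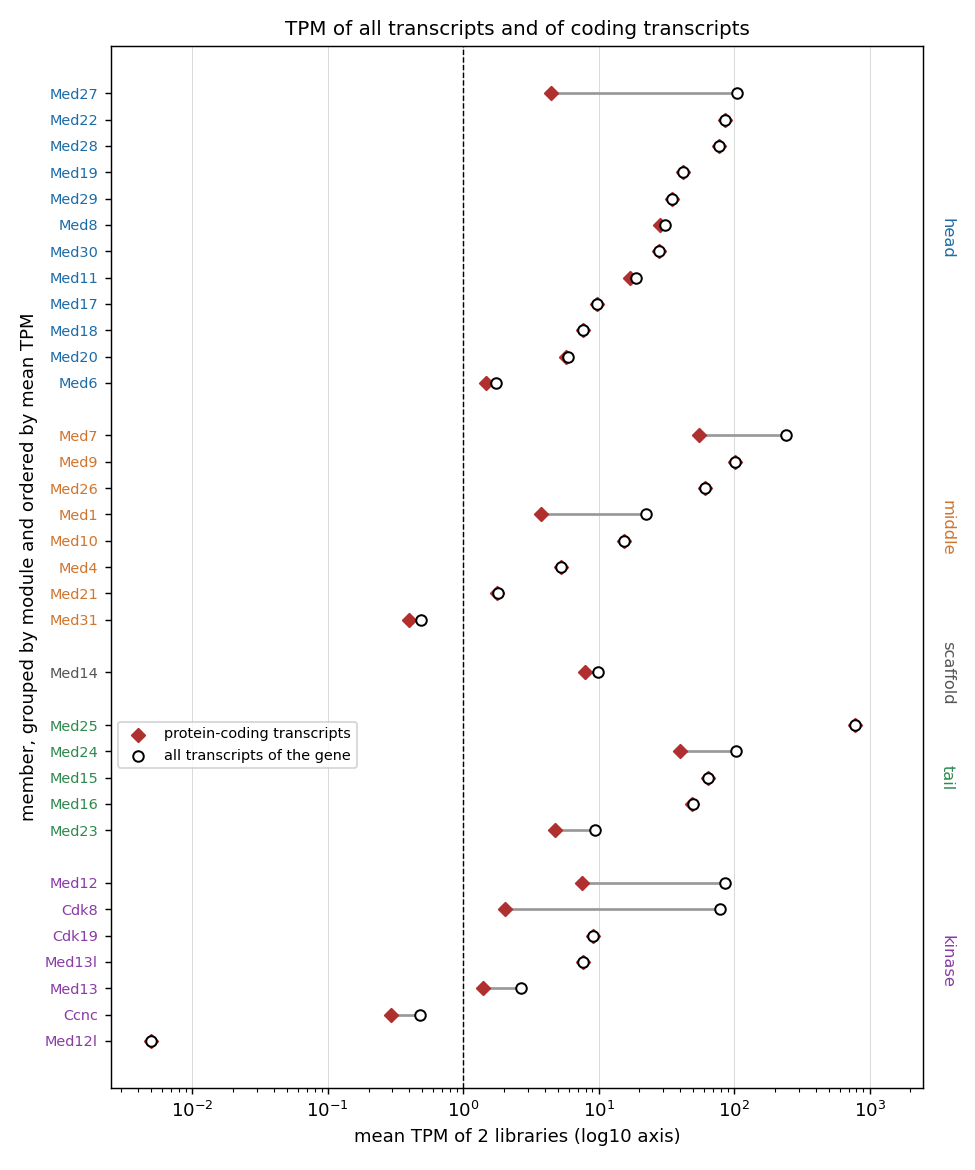
Mean TPM of both libraries on a log10 axis, for all transcripts of each Mediator gene (open circles) and for its protein-coding transcripts (red diamonds), joined by a grey line. Cdk8, Med27, Med12, Med7 and Med1 show the long lines, and Med25, Med9 and Cdk19 show none.

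Of the other members, 8 had a leading transcript that was divided or unstable, meaning under 60% of the gene TPM in either library or not the same in both. They were Med8, Med11, Med13, Ccnc, Med21, Med14, Med24 and Med23. Med24 was led by the coding Med24-201 in replicate 1 (55.0%) and by the 453-base Med24-209 in replicate 2 (41.1%). Med23 was led by the retained-intron Med23-210 in replicate 1 (44.9%) and by the coding Med23-202 in replicate 2 (39.6%). Med13 was led by the coding Med13-201 in replicate 1 (75.2%) and by the 540-base Med13-202 in replicate 2 (63.2%), although Med13-201 took 98.8% and 93.9% of its counts. These shares did not repeat well enough to rank the isoforms.

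In 4 of those genes the leading transcript was coding in both libraries. Med14-201 took 48.0% and 69.5% of the Med14 TPM, and the longer Med14-202 took 26.9% and 13.1%. Med8-203 took 73.1% and 51.0% of Med8, and Med11-201 took 88.7% and 53.9% of Med11. In Med21 the coding transcripts Med21-201 and Med21-203 led in turn, with 51.6% in replicate 1 and 93.0% in replicate 2. For Ccnc, Ccnc-201 led with 75.4% in replicate 1 and Ccnc-206, which is not coding, with 40.0% in replicate 2, from 6 counts.

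Protein-coding transcripts alone left the order of the module medians as it was. The medians on that scale were 49.6 and 52.2 TPM in the tail, 22.8 and 18.4 TPM in the head, 12.04 and 8.54 TPM in the middle and 1.64 and 2.65 TPM in the kinase module. The head median was then 13.9 times the kinase median in replicate 1 and 6.94 times in replicate 2. Within the kinase module the order became Cdk19 with 8.62 and 9.54 TPM, Med13l with 8.74 and 6.48 TPM and Med12 with 7.83 and 7.23 TPM. The range of Med13l overlapped those of Cdk19 and Med12, while Cdk19 was above Med12 in both libraries. Cdk8 followed with 1.42 and 2.65 TPM, a range that overlapped that of Med13, with 1.64 and 1.17 TPM. Med13l was 5.32 and 5.53 times Med13 on this scale, closer between the libraries than at gene level.

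**Figure D3:**
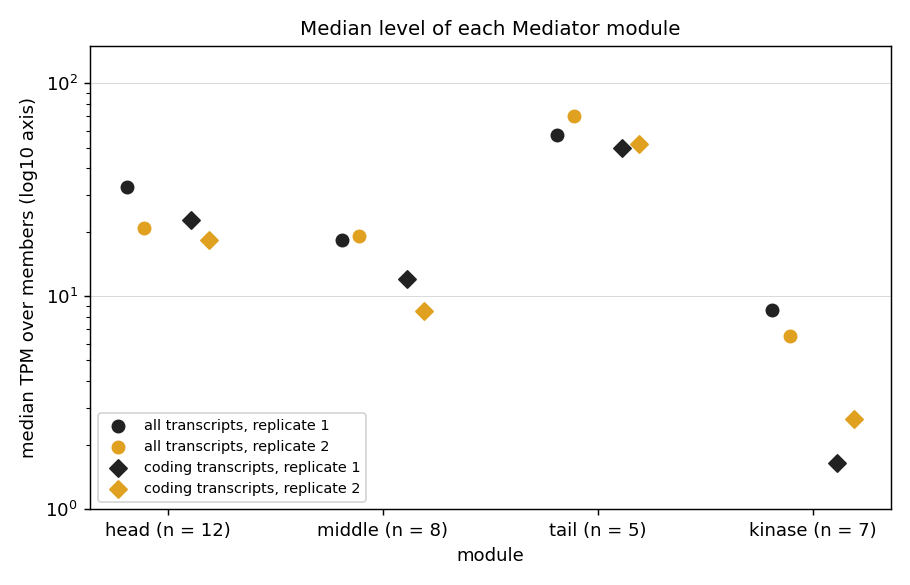
Median TPM over the members of each module on a log10 axis, for all transcripts (circles) and protein-coding transcripts (diamonds), replicate 1 in black and replicate 2 in yellow. The tail is highest and the kinase module lowest on both scales; Med14, the scaffold, is not drawn.

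The libraries were then compared gene by gene. Counts were set against the ratio of scaled library sizes with an exact two-sided binomial test, adjusted by Benjamini-Hochberg over 11285 genes with at least 10 counts. Calls needed an adjusted p below 0.05 and a difference of 2-fold or more. The test is of these libraries, not of conditions, and allows for counting noise alone. Of 32 members tested, 6 were called, all higher in replicate 1, and 0 were called higher in replicate 2. Over all genes tested, 11.3% were called, 8.58% higher in replicate 1 and 2.72% higher in replicate 2. Among detected genes, 4 of 29 members were called, and 7.41% of protein-coding genes. The median absolute log2 ratio was 0.33 over members and 0.39 over all genes tested.

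The called members came from every module except the scaffold. In the head they were Med20, with 844 and 245 counts (log2 ratio of replicate 1 over replicate 2 of 1.17), Med8 at 1.09 and Med30 at 1.01. In the tail it was Med23, with 2119 and 562 counts and a log2 ratio of 1.30. In the middle it was Med21, at 2.43, and in the kinase module Ccnc, at 1.18. Adjusted p in the exact binomial test was between 5.95e-93 (Med23) and 0.000357 (Ccnc).

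Fold limits decided some cases. Med4 had a log2 ratio of 0.95 and Med25 one of -0.99, and neither was called. With total counts in place of TMM scaling Med4 was also called, and with DESeq2 size factors Med25 was called, as higher in replicate 2, and Med30 was not. With edgeR's exact test and the spread of the pair itself, 0 members were called, and 0.922% of all genes tested were. The lowest adjusted p of a member in that exact test was 0.107, for Med21. By scaled counts Med13 and Med24 were higher in replicate 1 (log2 ratios of 0.32 and 0.31), and by TPM both were higher in replicate 2. The effective length of Med13 was 7910 bases in replicate 1 and 4087 bases in replicate 2, in step with the change of leading transcript.

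**Figure D4:**
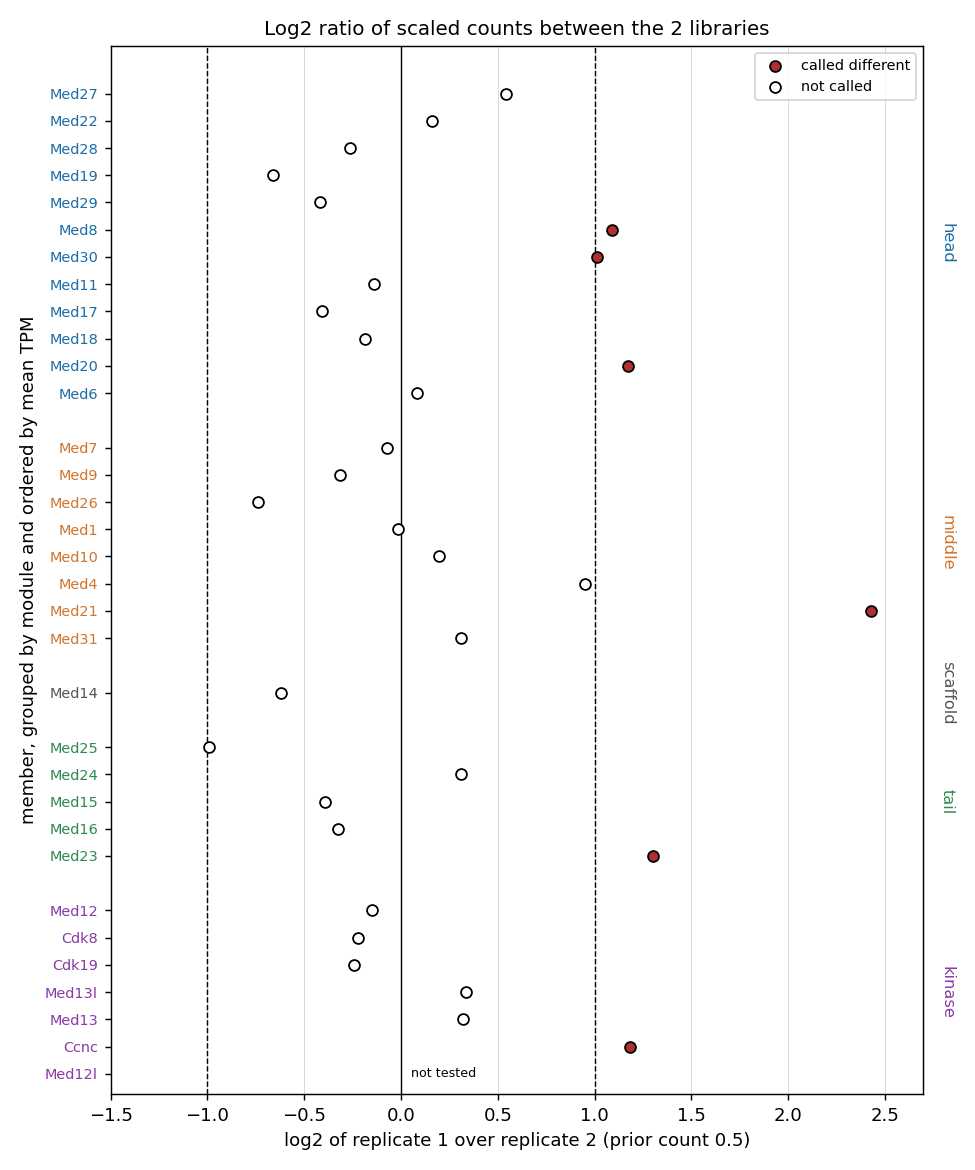
Log2 ratio of scaled counts, replicate 1 over replicate 2, for each Mediator gene by module. Filled red points are the 6 members called different, all at or above 1.01, and dashed lines mark a fold of 2 either way; Med12l had too few counts to be tested.

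Base composition moved with both the level and the difference between libraries. The leading transcript of the 6 called members had a median GC content of 45.7%, against 52.8% in those not called. Across 32 members the log2 ratio and GC content had a Spearman rho of -0.45 and a Pearson r of -0.55, and across 10130 protein-coding genes the rho was -0.30. Across all 33 members, log2 of mean TPM plus 0.1 and GC content had a rho of 0.74 and an r of 0.71. Over detected genes the rho was 0.74 for 29 members and 0.38 for 8215 protein-coding genes. These correlations are across genes that share their libraries, and the part of GC content in the levels or calls was not tested.

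**Figure D5:**
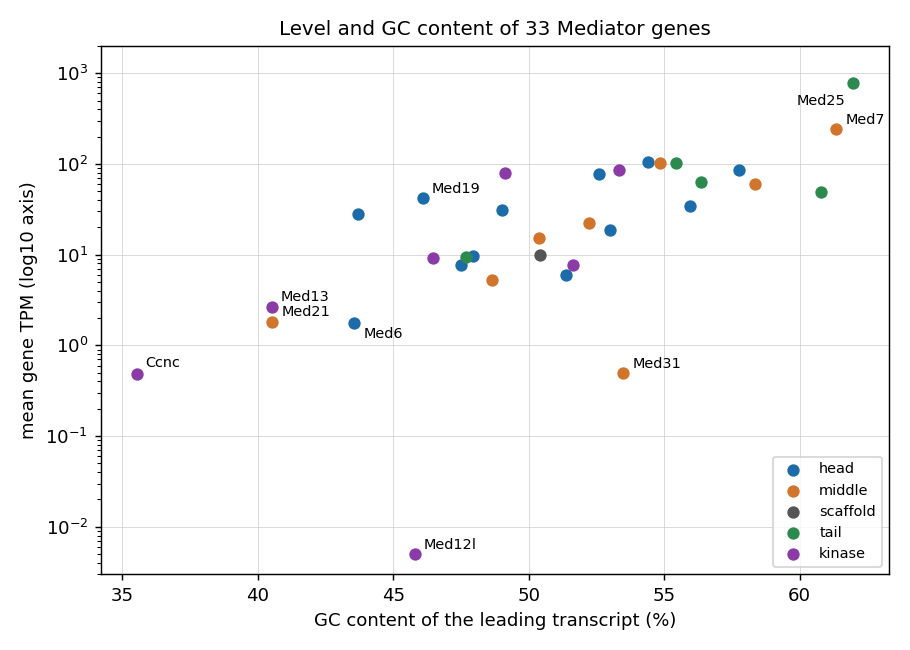
Mean gene TPM on a log10 axis against the GC content of the leading transcript for the 33 Mediator genes, coloured by module. Levels run upward from Ccnc at the low-GC end to Med25 and Med7 at the high-GC end. Med12l is the lowest point, and Med31, at 53.5% GC, lies below the points of similar GC content.

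Some members share sequence or exons with other genes, and the sources used here do not state whether counting used strand. Exons of 18 members overlap those of another gene, in 15 on the opposite strand. The overlapping gene had at least 100 counts in either library for 4 members. Med21 overlaps Tm7sf3 over 197 bases and matches 435 bases of Rps26, a ribosomal protein gene with 65765 and 10677 counts, on the opposite strand. Ccnc overlaps Tstd3 over 276 bases, with 352 and 131 counts for Tstd3 beside 81 and 23 for Ccnc. Med19 overlaps Zdhhc5 over 246 bases, and Med13 overlaps Brip1os over 800 bases. Med20 matches 296 bases of Kpna2, on the opposite strand, at 96.6% identity, with 1178 and 1108 counts for Kpna2 beside 844 and 245 for Med20. Med23 matches 264 bases of Gm45528, which was not analysed here, and Med4 matches 813 bases of Gm9434, with 0 and 1 counts. Levels of Med21, Ccnc, Med20, Med23, Med19 and Med13 are therefore uncertain, as is that of Cdk8, which matches Gm7107. The part of the overlapping or matching genes in these levels was not tested.

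The promoters of the members had more CpG than most. RefSeq windows (GRCm38.p6) from 250 bases before to 50 bases after the start were found for 28 members, as 32 windows of 300 bases. Their median was 20 CpG, against 7 over all 32851 windows. The letters CCGGAA, a core bound by ETS factors, stood on either strand in 16 of 32 windows (50%), against 14.9% of all windows. GATAA, the core bound by Gata factors, stood in 15.6% against 25.4%, TATAAA in 9.38% against 13.6% and CCAAT in 37.5% against 37.4%. CCGGAA itself holds a CpG, while GATAA and TATAAA do not. The windows were not matched for CpG, and the part of CpG content in these shares was not tested. A match is a run of letters and shows no binding.

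The windows below show the ETS core, in capitals as read 5′ to 3′ on the gene's strand, for the most abundant member of each module that holds it. They are Med19 (chr2:84678298-84678327, plus), Med7 (chr11:46436934-46436963, plus), Med14 (chrX:12762180-12762209, minus), Med15 (chr16:17722928-17722957, minus) and Med12 (chrX:101274064-101274093, plus). TTCCGG is the same core on the other strand.
Med19: ggaagtaagttgCCGGAAgatggtaggcgg
Med7: ctgagaaggcaaCCGGAActtgtgcttccg
Med14: tggcggcgcggcTTCCGGcgccttgcgccc
Med15: ttcttcctgtacTTCCGGcgtggcccagta
Med12: tccctcggcagtTTCCGGcagtaatcgaga

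Most genes of the machinery that Mediator works with were detected too. RNA polymerase II core genes were detected in 11 of 12 cases, with a median of 45.4 TPM, from Polr2f at 425 TPM to Polr2k at 0.245 TPM. The general transcription factors, which load the polymerase at promoters, were detected in 17 of 18 cases, with a median of 9.99 TPM and Gtf2f1 highest at 194 TPM. TAF subunits of TFIID were detected in 13 of 16 cases, with a median of 14.0 TPM and Taf10 highest at 546 TPM. Pause release and elongation genes were detected in 20 of 21 cases, with a median of 29.6 TPM, with Nelfe at 242 TPM and Supt5 at 163 TPM among the higher ones. Cohesin and its loader, which join Mediator at looped enhancers, were listed together with the insulator protein gene Ctcf. All 8 genes of that list were detected, with a median of 13.4 TPM, Ctcf at 208 TPM and Smc3 at 32.6 TPM.

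Mediator's median of member means, 22.3 TPM, lay inside the range of these list medians. Between the libraries, 2 of 11 polymerase genes tested, 4 of 15 TAF genes and 1 of 8 genes of the cohesin list were called. For general transcription factors it was 0 of 18 and for pause release genes 0 of 20. Over all genes tested, 11.3% were called, and differences between the lists were not tested. Of the 4 TAF genes, 3 were higher in replicate 1 and 1 in replicate 2. Cdk7, the kinase of TFIIH, had a mean of 1.01 TPM, between the coding-transcript level of Cdk8 and the gene level of Ccnc.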

How the data were processed

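PolyA RNA-seq of 1 group of 2 G1E-ER4 libraries was analysed, with a gene table and a transcript table for each. Per the notes deposited beside the files, values were derived from transcriptome alignments on mm10 with GENCODE M4; the aligner, the quantifier and the use of strand are not given in the sources used here. Expected counts, as deposited, are estimated fragments, not normalized, and were rounded for tests. The deposited TPM values are per effective length, scaled to the same total by the authors. Names, types, transcript lengths and exons came from GENCODE M21 on GRCm38, the same assembly; 131 of 148 member transcripts had the same length there. Promoters came from RefSeq (GRCm38.p6).

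Errors are the SD over the libraries. Libraries were compared by an exact binomial test with TMM scaling from edgeR 4.0.16 (R 4.3.3) and a prior count of 0.5 in log2 ratios. DESeq2 1.42.0 size factors and edgeR's exact test served as alternatives. The binomial test was first run on simulated data with counting noise only, which is the error it assumes. That run could not check it against the spread between real libraries. Copies of members were sought with blastn 2.17.0 at 95% identity over at least 200 bases. All members are named; of the other transcription lists, the rule names the 3 highest and 2 lowest genes, of which a part is printed. The members and lists were chosen with earlier results of these data known.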

Additional observations from a re-analysis of the deposited data

How the results depend on the processing

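Of 65 alternatives over 10 results, 44 stayed within the SD of the libraries or, for counts of genes, within 1.5 times. Another 20 moved further and 1 reversed the result. For the ratios, the main value is the mean over the libraries, so leaving out 1 library stays within the SD by construction. The same holds for the tail and middle medians, whose main values lay midway between the library medians. Those cases are among the 44 and are no check. The calls between libraries numbered 11 at a fold of 1.5 (27.7% of genes tested) and 0 with the spread of the pair, where 104 genes were called. They numbered 6 or 7 under the other scalings, without the filter and with posterior mean counts. Means over members gave 56.0 TPM in the middle, 200.7 in the tail, 26.2 in the kinase module and a head over kinase ratio of 1.46. Detected members only gave 41.5 TPM in the middle and a ratio of 2.96. The other module assignment gave a head median of 9.76 TPM and a ratio of 1.34. Protein-coding transcripts only, an alternative chosen after seeing the data, gave 10.3 TPM in the middle, 48.8 in the tail, 2.04 in the kinase module and a ratio of 10.4. It reversed Cdk8 over Cdk19 to 0.221, and gave 1776 for Med12 over Med12l and 0.184 for Med13 over Med13l. Cdk8 over Cdk19 was 4.41 by expected counts. Med12 over Med12l was 2791 by posterior mean TPM and 820.1 with 0.1 added to each TPM, since Med12l had 4 and 1 counts. The SD of that ratio was 19570, and 2950 by expected counts stayed within it. So did 8565 and 36240 with 1 library left out, by construction. Med13 over Med13l was 0.218 by expected counts, within an SD of 0.170. Leaving out each library gave 20.99 to 32.5 TPM for the head. No paired analysis was possible because there is 1 group. Members under 100 counts (Med6, Med21, Med31, Ccnc, Med12l) are limited by depth.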
